A study of Mus musculus with 6 samples.

Results

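The 40 genes described here encode the contractile filaments of striated muscle and the machinery that couples excitation to contraction. They were chosen by name, as the actins, myosins, troponins, titin-linked proteins, calcium channels and acetylcholine receptor subunits of muscle, and each was read from the brightest probe set that the annotation assigns to it alone. All 40 of the 18193 genes with a probe set of their own were found, and 37 had a mean of at least 5 over the arrays and were tested, of 12098 genes tested in all. The tissue came from mouse embryos at embryonic day 13.5 and is labelled retinal pigment epithelium (RPE), the pigmented sheet behind the neural retina. One group was albino and the control group was pigmented, with 3 pools of littermate embryos each, and neither the albino allele nor the strains are named in the labels. The labels list no transgene or treatment in either group. Because each library came from pooled dissected tissue, more muscle cells and more muscle RNA per cell cannot be told apart in any value below.

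As background, striated muscle contracts when myosin heads of the thick filament pull on actin of the thin filament, and troponin and tropomyosin hold the thin filament off until calcium arrives. A nerve signal reaches the fibre through the acetylcholine receptor, is sensed by the calcium channel of the surface membrane and releases stored calcium through the ryanodine receptor. Embryonic fibres use their own versions of several of these proteins, which are replaced as fibres mature into slow and fast types. RPE is not a contractile tissue. The muscles that move the eye form in the mesenchyme around the eyecup. The protocol says that tissue outside the eye was taken away, but the sample descriptions also speak of a whole eye region. How much muscle the pools held is therefore not known from the labels.

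Most sarcomere genes read higher on every albino array than on any pigmented array. The deposited values are log2 expression values, so a difference of 1 is a 2-fold change. Over the tested members the median difference of albino minus pigmented was 1.50 or 2.83-fold, against 0.047 over all 23591 probe sets tested. The groups did not overlap, with albino above, for 33 members, where the share over all probe sets was 7.39%. The albino mean was the higher one for 35 of 37 members, against 64.4% of all probe sets. A difference of at least 1 was found for 28 members, against 0.39% of all probe sets. At an unadjusted limma p under 0.05, 33 members were higher and 0 lower in albino pools, where 3.22% of all probe sets were higher and 1.46% lower. No member passed after Benjamini-Hochberg adjustment over all probe sets, as 0 of 37 had a limma adjusted p under 0.05, and the share over all probe sets was 0%. The smallest adjusted p was 0.50. With the arrays blocked by replicate number, 33 members were again higher at an unadjusted limma p under 0.05 and 1 (Ckm) was lower, where 11.9% of all probe sets were higher and 6.12% lower. The list was drawn up with earlier results of these data known, so these counts describe it and are not independent evidence. Of the 37, 5 (Klhl41, Mylk4, Myot, Rrad and Actn3) averaged below 5 in the pigmented pools and were tested only because the albino pools were high.

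**Figure D1:**
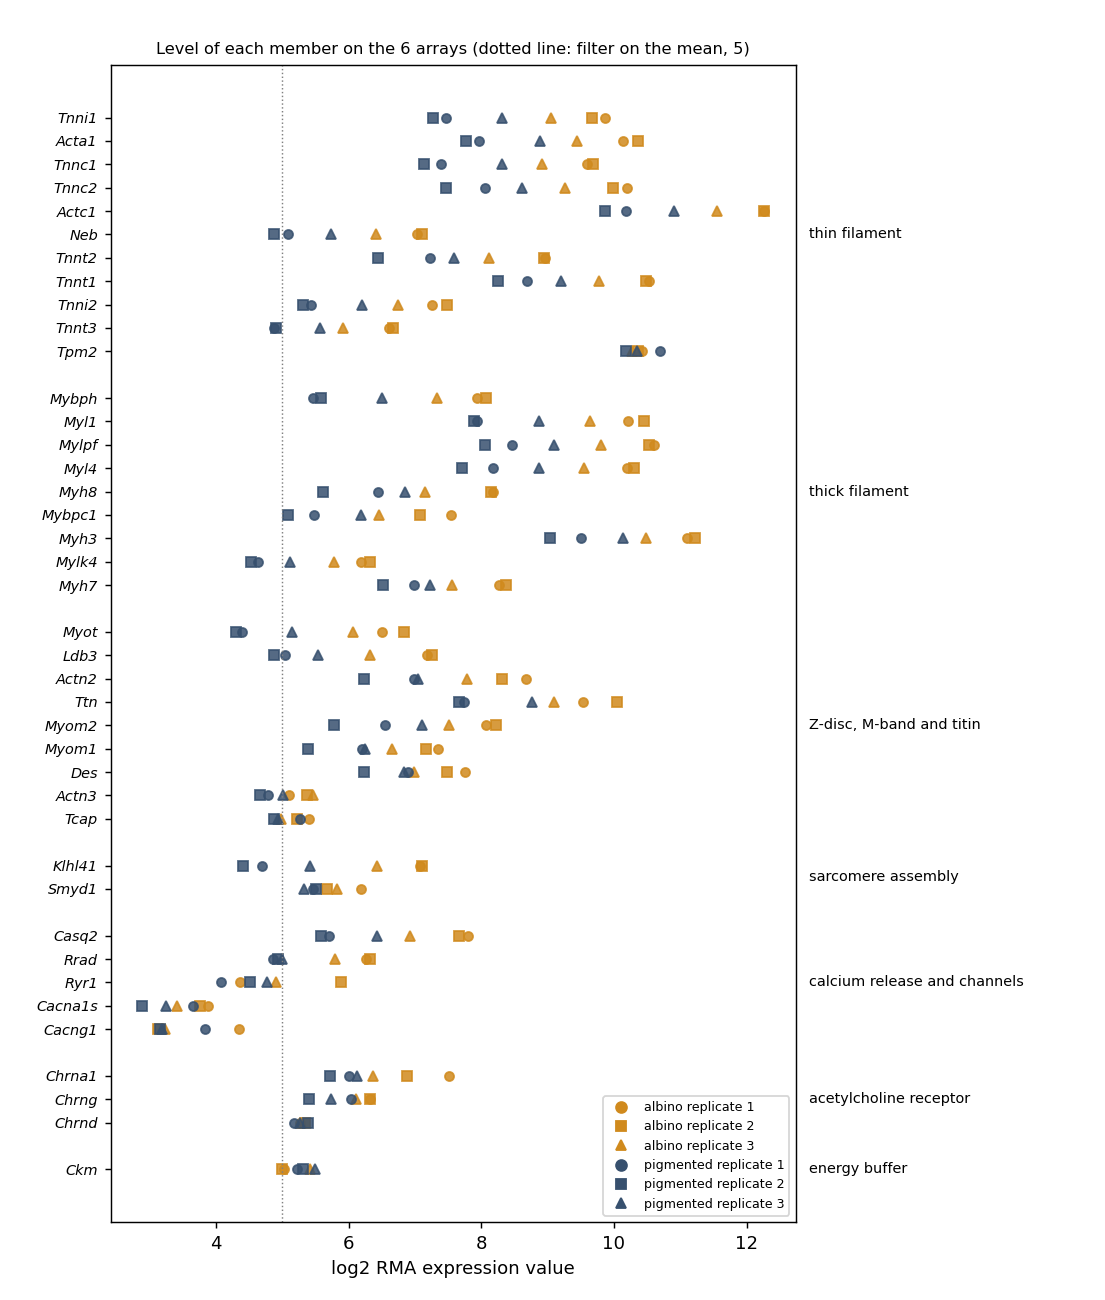
Log2 expression value (x axis) of each of the 40 members (rows, grouped by role) on the 3 albino arrays (orange) and the 3 pigmented arrays (blue), with the symbol giving the replicate. In most rows every orange symbol lies to the right of every blue one, with the replicate 3 triangles nearest the middle. Tpm2, Chrnd, Tcap and Ckm overlap, as do the dim Ryr1, Cacna1s and Cacng1.

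The 250 bases before the transcription start, where muscle regulators are known to bind, are shown for 4 members with different responses. Klhl41 had the largest difference of the list, Acta1 encodes the actin of mature skeletal muscle, Chrng encodes a receptor subunit of embryonic muscle, and Ckm was lower in the albino mean. Sequences are from RefSeq (GRCm38.p6), read 5′ to 3′ on the strand of the gene, and each window ends at the base before the annotated gene. Capitals mark CAGCTG, a form of the E-box CANNTG that myogenic factors such as MyoD and myogenin bind.
Klhl41 (chr2:69669870-69670119, plus strand): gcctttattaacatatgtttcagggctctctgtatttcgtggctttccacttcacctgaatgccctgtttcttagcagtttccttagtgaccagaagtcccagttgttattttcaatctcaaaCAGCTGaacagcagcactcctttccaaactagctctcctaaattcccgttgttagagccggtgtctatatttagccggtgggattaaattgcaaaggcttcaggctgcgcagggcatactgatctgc
Acta1 (chr8:123894776-123895025, minus strand): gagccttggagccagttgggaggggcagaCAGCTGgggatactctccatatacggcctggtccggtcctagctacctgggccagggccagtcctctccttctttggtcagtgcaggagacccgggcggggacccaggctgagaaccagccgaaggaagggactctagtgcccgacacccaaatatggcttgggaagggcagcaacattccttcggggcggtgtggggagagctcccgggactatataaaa
Chrng (chr1:87205561-87205810, plus strand): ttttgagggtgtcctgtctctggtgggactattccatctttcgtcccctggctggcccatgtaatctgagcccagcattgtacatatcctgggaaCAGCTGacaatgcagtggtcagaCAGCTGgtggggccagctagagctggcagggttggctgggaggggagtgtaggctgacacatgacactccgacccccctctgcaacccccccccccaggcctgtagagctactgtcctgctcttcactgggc
Ckm (chr7:19410844-19411093, plus strand): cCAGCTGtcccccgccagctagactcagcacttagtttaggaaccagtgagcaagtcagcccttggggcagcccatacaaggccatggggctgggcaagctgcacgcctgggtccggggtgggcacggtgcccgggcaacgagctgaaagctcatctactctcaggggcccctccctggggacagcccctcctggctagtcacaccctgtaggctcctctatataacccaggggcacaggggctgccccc

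The first base of CAGCTG stands at -127 from the start of Klhl41, at -221 for Acta1, at -155 and -132 for Chrng and at -249 for Ckm. CAGCTG reads the same on both strands. RefSeq gave a promoter for 30 of the 40 members (34 promoters), and Tnnt3, Tnni2, Neb, Actn3, Myot, Tcap, Myom2, Cacng1, Rrad and Chrnd had no entry. The motif was found before 15 of the 30 genes and in 16 of the 34 promoters, against 13% of all 32851 promoters (4271) in the same window. It was found before 12 of the 26 members with a promoter whose groups did not overlap, and before 3 (Cacna1s, Ckm and Tpm2) of the other 4, which overlapped or were too dim to test. The wider E-box CANNTG, which includes CAGCTG, was found before 25 of the 30 genes, against 66.2% of all promoters. A CArG box, the site of serum response factor, was found before Acta1, Actc1, Ldb3 and Myom1 (1.47% of all promoters). A MEF2 site was found before Klhl41, Casq2, Myh8, Mylk4 and Ttn (1.69% of all promoters), and CATTCC, the MCAT box on either strand, before 7 genes (12.6% of all promoters). These matches describe letters in a window and were not tested for binding.

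Thin filament genes read higher in albino pools in 10 of 11 cases, against 64.4% of all probe sets, with a median difference of 1.61. The 11 encode actins, troponins, nebulin and a tropomyosin, and Tpm2, as read from its brightest probe set, was the exception. The 3 subunits of troponin are the calcium sensor troponin C, the inhibitor troponin I and the tropomyosin-binding troponin T, and each has a slow and a fast form.

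Tnni1, the slow troponin I gene, read 9.86, 9.67 and 9.05 in albino pools (replicates 1, 2 and 3, the order used throughout) and 7.47, 7.27 and 8.31 in pigmented pools. Its lowest albino value lay 0.74 above its highest pigmented value, and the difference was 1.84 (SE 0.32). Tnni2, the fast troponin I gene, read 7.26, 7.48 and 6.75 against 5.43, 5.32 and 6.20. The groups were again apart, and the difference was 1.51 (SE 0.28). A further Tnni2 probe set gave 0.64, but it averaged 4.73 in pigmented pools and was tested only because the albino pools were high. A dim Tnni2 probe set, below the filter, gave -0.25.

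Tnnc1, the slow and cardiac troponin C gene, read 9.60, 9.68 and 8.91 in albino pools against 7.40, 7.14 and 8.32 in pigmented pools. Tnnc2, the fast troponin C gene, read 10.20, 9.99 and 9.27 against 8.06, 7.47 and 8.61. Their differences were close, at 1.78 (SE 0.35) for Tnnc1 and 1.77 (SE 0.35) for Tnnc2. Tnnt1, the slow troponin T gene, read 10.53, 10.49 and 9.77 against 8.69, 8.26 and 9.20, a difference of 1.55 (SE 0.30). Tnnt3, the fast form, read 6.61, 6.67 and 5.91 against 4.88, 4.90 and 5.57, a difference of 1.28 (SE 0.27). In each of these troponin genes the albino replicate 3 array was the lowest of its group and the pigmented replicate 3 array the highest. Tnnt2, the troponin T gene of heart and of embryonic skeletal muscle, differed by 1.58 (SE 0.35), and a further tested probe set gave 1.61. Averaging all probe sets of the gene, one of them dim, gave 0.98.

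The 2 actin genes gave similar differences. Actc1, the cardiac actin gene that embryonic skeletal muscle also uses, read 12.26, 12.27 and 11.55 in albino pools and 10.19, 9.86 and 10.91 in pigmented pools. Albino exceeded pigmented by 1.71 (SE 0.31), or 3.26-fold. Acta1, the skeletal actin gene, read 10.14, 10.37 and 9.45 against 7.97, 7.77 and 8.88. Its difference was 1.78 (SE 0.35), and neither gene's groups overlapped. Neb, which encodes the thin filament ruler protein nebulin, differed by 1.61 (SE 0.28).

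Tpm2, which encodes beta-tropomyosin, differed less than the other thin filament genes. It read 10.43, 10.36 and 10.28 in albino pools and 10.70, 10.18 and 10.35 in pigmented pools. The groups overlapped, and the difference was -0.053 (95% confidence interval -0.41 to 0.30). Its other 2 tested probe sets gave 0.06 and 0.43, the latter with every albino array above every pigmented one. The value of the brightest probe set turned to 0.092 without pigmented replicate 1. Tropomyosin genes are also transcribed in smooth muscle and in cells that are not muscle.

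**Figure D2:**
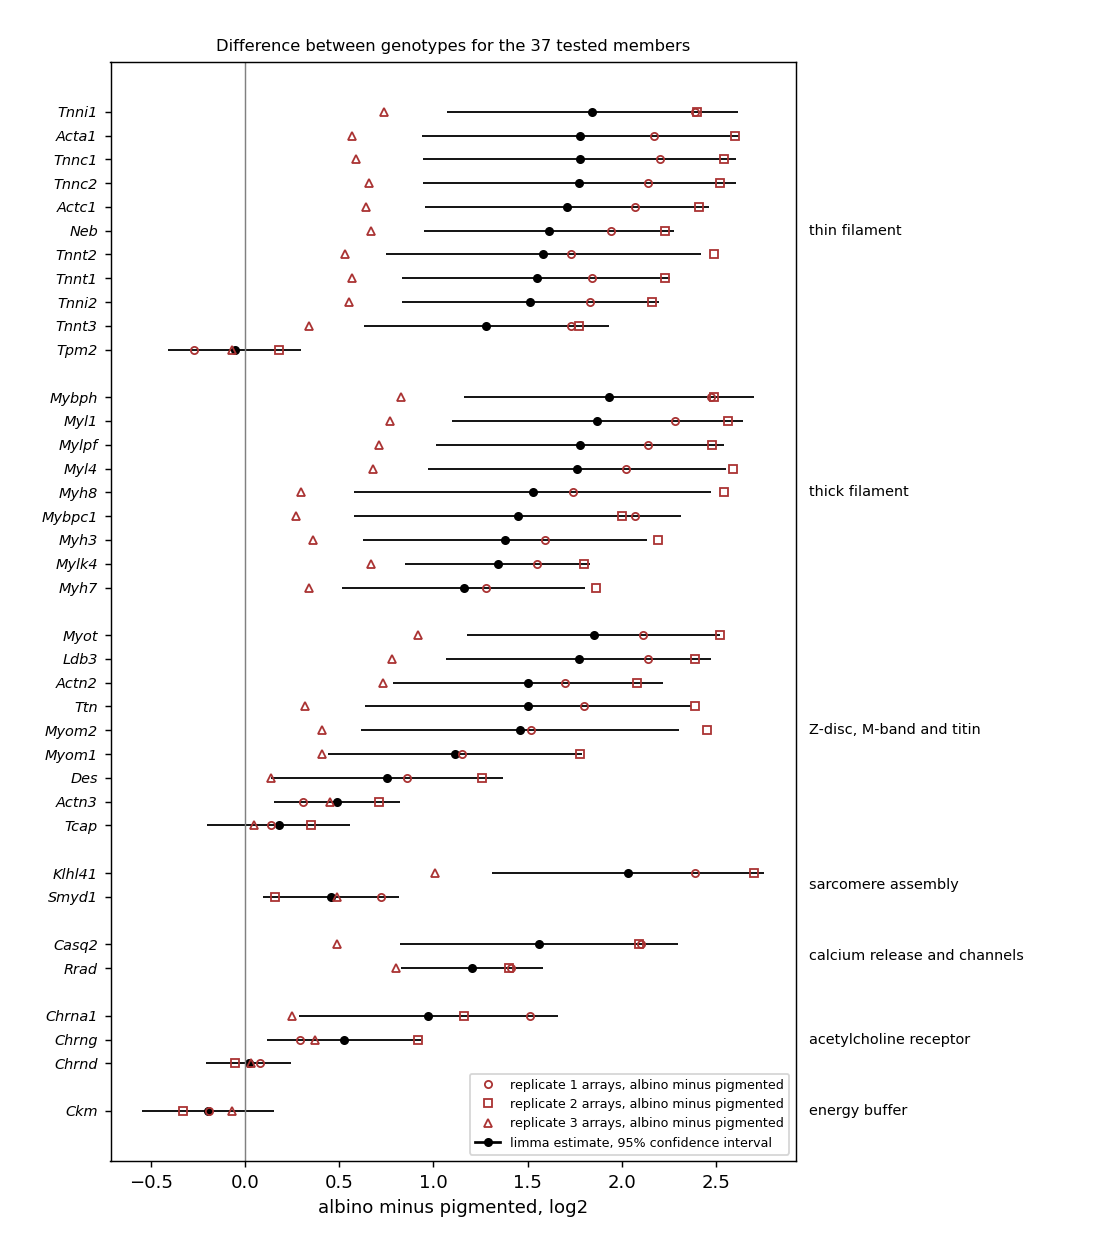
Albino minus pigmented difference (x axis, log2) of each of the 37 tested members. Black points are limma estimates with 95% confidence intervals, and open red symbols are differences between arrays of the same replicate number. The replicate 3 triangles lie to the left of the estimate in most rows, and Tpm2, Tcap, Chrnd and Ckm have intervals that include 0.

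All 9 thick filament genes, against 7.39% of all probe sets, read higher on every albino array than on any pigmented array. Their median difference was 1.53. They include 3 myosin heavy chains, the motor proteins, and 3 myosin light chains, which stiffen and tune the motor's lever arm. Mybpc1 and Mybph encode proteins that bind along the myosin rod, and Mylk4 belongs to the myosin light chain kinases.

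Mybph had the largest difference of the thick filament group. It read 7.93, 8.07 and 7.34 in albino pools and 5.46, 5.58 and 6.51 in pigmented pools, a difference of 1.93 (SE 0.32) or 3.81-fold. Myl1, the fast alkali light chain gene, read 10.21, 10.45 and 9.64 against 7.93, 7.89 and 8.87. Its difference was 1.87 (SE 0.32), and the groups were 0.77 apart. Mylpf, the fast regulatory light chain gene, read 10.60, 10.53 and 9.81 against 8.46, 8.05 and 9.10, a difference of 1.78 (SE 0.32). Myl4, the light chain gene of embryonic muscle and heart atria, read 10.20, 10.30 and 9.55 against 8.18, 7.71 and 8.87. Its difference was 1.76 (SE 0.33), but the mean of its 2 probe sets gave 0.97, since the dimmer one differed by 0.19.

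The heavy chain genes differed somewhat less. Myh3, the embryonic heavy chain gene, read 11.10, 11.22 and 10.49 in albino pools and 9.51, 9.03 and 10.13 in pigmented pools, a difference of 1.38 (SE 0.31). Myh8, the perinatal form, read 8.18, 8.15 and 7.15 against 6.44, 5.61 and 6.85, with the widest standard error of the tested members (difference 1.53, SE 0.40). Myh7, the slow and cardiac form, read 8.27, 8.38 and 7.56 against 6.99, 6.52 and 7.22, a difference of 1.16 (SE 0.27). No heavy chain gene's groups overlapped, with gaps of 0.30 to 0.36 between the lowest albino and the highest pigmented array. The heavy chain genes are close relatives, and how far their probes cross-react was not tested. Mybpc1 differed by 1.45 (SE 0.36) and Mylk4 by 1.34 (SE 0.21).

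Genes of the Z-disc, which anchors thin filaments, and of the M-band, which ties thick filaments together, had a median difference of 1.46. Of these 9, all were higher in the albino mean, against 64.4% of all probe sets. The groups of 8 did not overlap, with albino above, against 7.39% of all probe sets. Myot, which encodes the Z-disc protein myotilin, read 6.51, 6.83 and 6.07 in albino pools and 4.40, 4.31 and 5.15 in pigmented pools. Its difference was 1.85 (SE 0.28). Ldb3, which encodes the alpha-actinin partner ZASP, read 7.18, 7.26 and 6.32 against 5.04, 4.87 and 5.54, a difference of 1.77 (SE 0.29). Its 2 dimmer probe sets were below the filter and gave 0.37 and -0.0067.

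Ttn, the gene of the giant spring protein titin, read 9.54, 10.05 and 9.09 in albino pools and 7.74, 7.66 and 8.77 in pigmented pools. Albino exceeded pigmented by 1.50 (SE 0.36), and its 2 other tested probe sets gave 1.53 and 1.01. Averaging its 6 probe sets, 3 of them with means below 5, gave 0.86. Actn2, the alpha-actinin gene of all striated fibres, differed by 1.50 (SE 0.30), while Actn3, the form of fast fibres, differed by 0.49 (SE 0.14). Myom1 and Myom2, which encode the M-band proteins myomesin 1 and 2, differed by 1.11 (SE 0.28) and 1.46 (SE 0.35), and the other tested Myom2 probe sets gave 1.38 and 1.48.

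Des, which encodes the intermediate filament protein desmin, had a smaller difference than most of this group. It read 7.76, 7.49 and 6.98 in albino pools and 6.90, 6.23 and 6.84 in pigmented pools. The groups stood only 0.08 apart, with a difference of 0.75 (SE 0.26), or 0.49 with the Y-linked covariate described below. Tcap, the titin cap gene, read 5.41, 5.22 and 4.98 against 5.27, 4.87 and 4.93. The groups overlapped, and the difference of 0.18 had a 95% confidence interval of -0.20 to 0.56. Tcap and Actn3 had means of 5.11 and 5.07, just above the filter, and Ryr1 at 4.76 fell just below it.

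Of the 2 genes of sarcomere assembly, Klhl41 had the largest difference among all members. Klhl41, which encodes a Kelch protein that stabilises nebulin, read 7.08, 7.11 and 6.43 in albino pools and 4.69, 4.41 and 5.42 in pigmented pools. The lowest albino array stood 1.01 above the highest pigmented array. The difference was 2.03 (SE 0.30), or 4.09-fold, with a limma adjusted p of 0.50. Smyd1, the gene of a methyltransferase that helps fold myosin, differed by 0.46 (SE 0.15). Its probe sets did not share a direction, since the other 2 tested gave -0.36 (SE 0.75) and -0.20 (SE 0.62). Of its probe sets below the filter, 1 gave 1.27, with every albino array above every pigmented one. The others gave -0.097 and -0.03.

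Calcium handling could be read from only 2 of its 5 members, because Ryr1, Cacna1s and Cacng1 had means below 5. Casq2, the calsequestrin gene of heart and slow muscle, differed by 1.56 (SE 0.31). Rrad, which encodes a small GTPase that restrains calcium channels, differed by 1.20 (SE 0.16) and had the smallest unadjusted p of the list, at 0.00017. Ryr1, the calcium release channel gene of skeletal muscle, read 4.37, 5.89 and 4.91 in albino pools and 4.07, 4.52 and 4.77 in pigmented pools. Its groups overlapped, but a second dim Ryr1 probe set had every albino array above every pigmented one, with a difference of 1.10. Cacna1s, the voltage sensor gene, read 3.88, 3.76 and 3.42 against 3.65, 2.88 and 3.25. Cacng1, an accessory subunit gene of that channel, read 4.35, 3.13 and 3.23 against 3.83, 3.15 and 3.18. These 3 genes were not tested, and a low mean on this array is not a call of absence.

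The 3 acetylcholine receptor genes differed from each other. Chrna1, the gene of the subunit that binds acetylcholine, differed by 0.97 (SE 0.29), with groups 0.25 apart. Chrng, the subunit gene of the embryonic receptor, read 6.32, 6.33 and 6.11 in albino pools and 6.03, 5.41 and 5.74 in pigmented pools. Its groups were 0.08 apart, and the difference was 0.53 (SE 0.17), or 0.29 with the Y-linked covariate described below. Further Chrng probe sets, below the filter and with overlapping groups, gave -0.083 and 0.41. Chrnd, the delta subunit gene, read 5.26, 5.34 and 5.29 against 5.18, 5.39 and 5.26, all close to the filter of 5. Its groups overlapped, with a difference of 0.02 (95% confidence interval -0.21 to 0.25) whose sign turned after centring on the median of the tested probe sets (-0.053). It also turned without albino replicate 2 (-0.0017) or pigmented replicate 1 (-0.028). Ckm, which encodes the muscle creatine kinase that restores ATP, was lower in the albino mean, with a difference of -0.20 (SE 0.15) and overlapping groups. Between arrays of the same number the differences were -0.19, -0.33 and -0.07, and with the replicate block Ckm was lower at an unadjusted limma p of 0.040 (adjusted p 0.26). Its second probe set, just below the filter, gave -0.14.

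Embryonic and mature forms were then compared by how far each gene differed between genotypes, since levels of different probe sets cannot be compared. The 6 embryonic forms (Myl4, Actc1, Tnnt2, Myh8, Myh3 and Chrng) had a median difference of 1.56. None of them overlapped between groups, with albino above, where the share over all probe sets was 7.39%. The 4 forms of mature muscle (Acta1, Myom2, Actn3 and Ckm) had a median of 0.98, with values from -0.20 to 1.78. The mature class is not uniform, since Myom2 lay within the range of the embryonic forms, Acta1 just above it and Actn3 and Ckm below it. Actn3 and Ckm also read close to the filter of 5. The adult heavy chain genes Myh1, Myh2 and Myh4 and the adult receptor subunit gene Chrne, which are not members, had means below 5 and were not tested. Myh1 read 4.68, 4.92 and 3.74 in albino pools against 3.17, 3.02 and 3.05 in pigmented pools, with every albino array above. Myh2 read the other way, at 3.80, 3.31 and 3.36 against 4.33, 4.29 and 4.09. Chrne read 4.31, 3.91 and 4.07 against 4.53, 4.20 and 4.07, and Myh4 read 2.52 to 3.50 over the 6 arrays.

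Slow and fast forms had medians close to each other. The 6 slow forms (Tnni1, Tnnc1, Casq2, Tnnt1, Mybpc1 and Myh7) had a median difference of 1.55, and the 6 fast forms (Myl1, Mylpf, Tnnc2, Tnni2, Tnnt3 and Actn3) a median of 1.64. All 12 had non-overlapping groups with albino above, against 7.39% of all probe sets. Of these, Actn3 averaged below 5 in pigmented pools and was tested only because the albino pools were high. Within each array, the slow gene was also set against its fast partner, which shows whether the 2 differed unequally between genotypes. The difference of Tnni1 minus Tnni2 was 2.60, 2.19 and 2.30 in albino pools and 2.04, 1.95 and 2.11 in pigmented pools, so it was wider by 0.33 in albino pools. Tnnt1 minus Tnnt3 was wider by 0.27, with 3.92, 3.82 and 3.86 against 3.81, 3.36 and 3.63. Both had an exact two-sided permutation p of 0.1, the smallest that 3 against 3 arrays allow, and 0.2 after adjustment over 4 pairs. Tnnc1 minus Tnnc2 differed by 0.0033 between genotypes (exact permutation p = 1), with the albino values from -0.60 to -0.31 and the pigmented from -0.66 to -0.29. Actc1 minus Acta1, an embryonic form against a mature one, differed by -0.073 (exact permutation p = 0.6). No pair can pass 0.05 in this permutation test, and these p-values do not show that slow and fast forms differed alike.

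**Figure D3:**
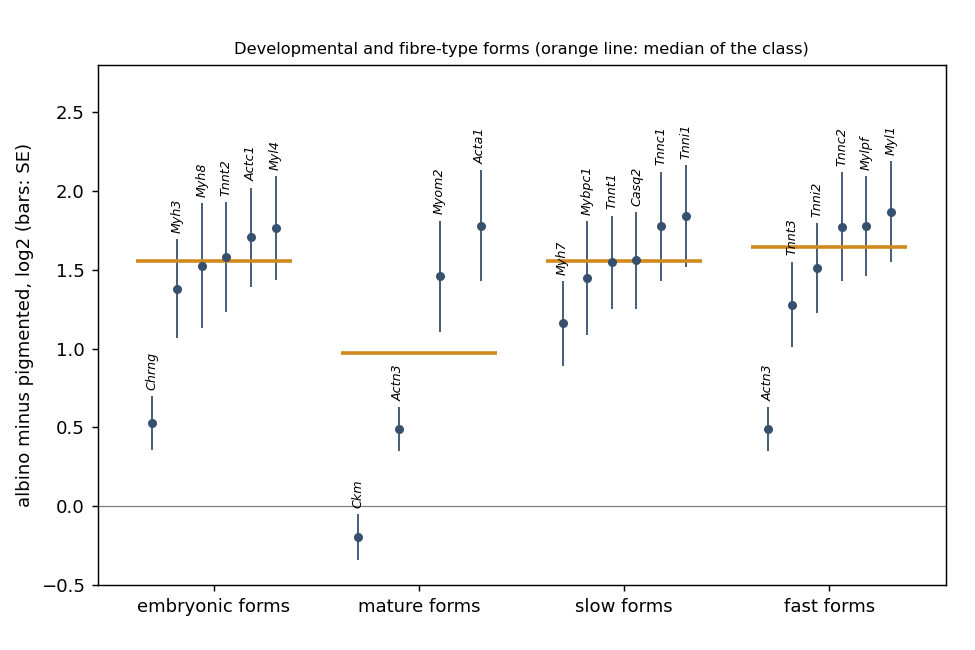
Albino minus pigmented difference (y axis, log2, bars show the SE) of each gene in the embryonic, mature, slow and fast classes, with the class median as an orange line. Actn3 is in the mature and the fast class. The embryonic, slow and fast classes have medians between 1.55 and 1.64, and the mature class is split, with Ckm and Actn3 low and Myom2 and Acta1 high.

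The members also varied together within each genotype. Albino replicate 3 was the lowest albino array for 33 of the 37 tested members, and pigmented replicate 3 was the highest pigmented array for 31. Pigmented replicate 2 was the lowest pigmented array for 31. Relative to each gene's own mean over the arrays, the median member stood at 0.99, 1.0 and 0.28 on the albino arrays and at -0.80, -1.17 and -0.26 on the pigmented arrays. The difference between arrays of the same number had a median of 1.74 for replicate 1, 2.19 for replicate 2 and 0.53 for replicate 3. Albino was above pigmented for 35 of 37 members at each number, of which 33 follow from the groups that did not overlap. The mean over the 37 members was 7.91 ± 0.34 over the albino pools and 6.62 ± 0.38 over the pigmented pools (SD, n = 3 for either genotype). Leaving out pigmented replicate 2 lowered the median difference to 1.24, and leaving out pigmented replicate 3 raised it to 1.79.

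**Figure D4:**
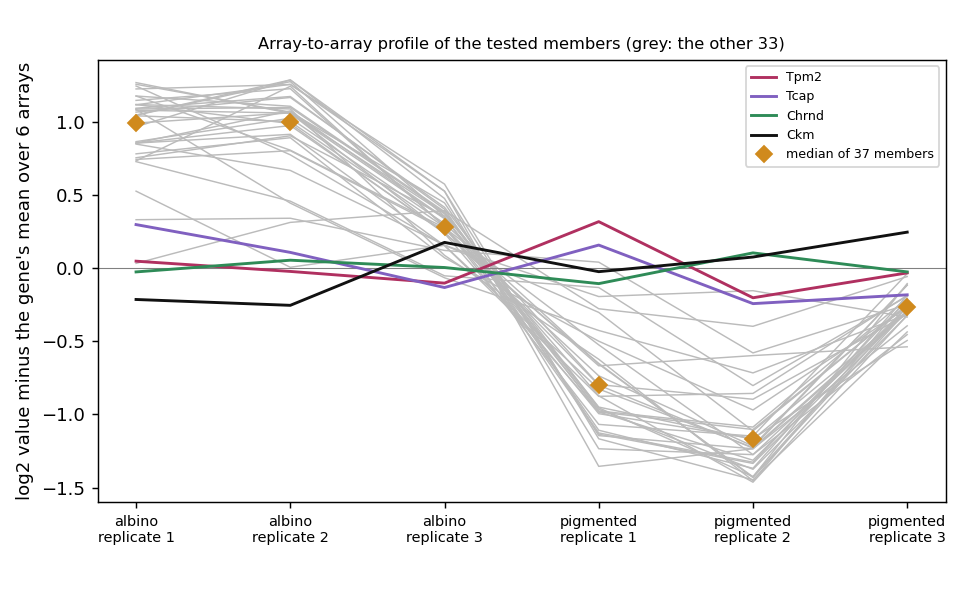
Log2 value of each of the 37 tested members minus its own mean over the 6 arrays (y axis), by array (x axis), with the median member as an orange diamond. Most of the 33 grey lines run together, highest on albino replicates 1 and 2, lowest on pigmented replicate 2 and closest to 0 on the replicate 3 arrays, while Tpm2, Chrnd, Tcap and Ckm vary less.

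Other genes of contraction and its coupling were less uniform. Of 64 genes on that list, 58 had a probe set of their own and 34 were tested. Their median difference was 0.20, with 26 higher and 8 lower in the albino mean, where 64.4% of all probe sets were higher. At an unadjusted limma p under 0.05, 12 were higher and 0 lower, with 0 past the adjusted threshold. Over all probe sets, 3.22% were higher and 1.46% lower at that p. In 11 genes every albino array was above every pigmented one, against 7.39% of all probe sets. The widest difference was that of Sln, which encodes the calcium pump inhibitor sarcolipin, at 8.61, 8.13 and 7.23 in albino pools and 6.17, 5.82 and 6.52 in pigmented pools (1.82, SE 0.36). Myoz2, a Z-disc protein gene, differed by 1.25 (SE 0.23), Cav3, the muscle caveolin gene, by 1.17 (SE 0.26) and Klhl40, a relative of Klhl41, by 1.10 (SE 0.27). Klhl40 averaged 4.78 in pigmented pools and was tested only because the albino pools were high. On the lower side were the calpain gene Capn3 (-0.41, SE 0.30), the cardiac gene Mybpc3 (-0.15, SE 0.35), the dystrophin gene Dmd (-0.13, SE 0.09) and the myoglobin gene Mb (-0.11, SE 0.29). The groups of Capn3, Mybpc3 and Mb overlapped, and those of Dmd did not, running from 7.72 to 7.79 in albino and from 7.83 to 7.96 in pigmented pools.

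Markers of other cells were read on the same arrays. Myogenic factors regulate muscle progenitors and young fibres. Of the 9 tested, 7 were higher on every albino array, against 7.39% of all probe sets. Their list means were 6.96 to 7.34 in albino and 6.13 to 6.54 in pigmented pools. Of the 7, Pax7 and Mymk averaged 4.44 and 4.98 in pigmented pools and were tested only because the albino pools were high. Myog, the myogenin gene, differed by 1.71 (SE 0.29) and Myf5 by 1.67 (SE 0.25), whereas Pax3 and Six4 differed by -0.23 (SE 0.32) and -0.06 (SE 0.16). Heart muscle shares Actc1, Tnnt2, Myh7, Tnnc1, Myl4 and Casq2 with this list, but 9 of its 12 own markers had means below 5, among them Myh6, Myl7, Myl2, Nppa and Tnni3. The 3 tested heart markers had list means of 5.04 to 5.21 in albino and 5.29 to 5.33 in pigmented pools, and none was higher in albino pools. Smooth muscle markers had list means of 7.01 to 7.39 and 6.71 to 6.98, with 6 of 8 tested. Acta2, the smooth muscle actin gene that young skeletal muscle also transcribes, differed by 1.11 (SE 0.25). Actg2, the other smooth muscle actin gene, differed by 0.40 (SE 0.17). These 2 were higher on every albino array, as were 7.39% of all probe sets. With the replicate block 3 of the 6 were higher at an unadjusted limma p under 0.05, against 1 without it. Over all probe sets the shares were 11.9% with the block and 3.22% without it. The genes Tagln (0.25), Myh11 (0.17) and Smtn (0.13) differed by less, and Cnn1 and Myocd were below 5. Lmod1 was the only tested marker of this list that was lower in the albino mean (-0.017), with overlapping groups.

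Pigment epithelium markers had 10 of 11 genes tested, with list means of 10.19 to 10.34 in albino and 10.34 to 10.60 in pigmented pools. All 10 lay lower in the albino mean, where 64.4% of all probe sets lay higher. At an unadjusted limma p under 0.05, 1 was lower (Ttr, -0.56, SE 0.12), and 3 were lower with the replicate block. Over all probe sets those shares were 1.46% and 6.12%. Rpe65, a gene of the mature tissue, was below the filter. Periocular mesenchyme markers had list means of 10.73 to 10.87 and 10.77 to 10.99, and tendon markers 6.33 to 6.89 and 5.94 to 6.72. The part of muscle tissue outside the eyecup in the members' difference was not tested. The Y-linked genes Eif2s3y, Kdm5d and Uty had list means of 7.06 to 7.99 in albino pools and 7.39, 2.32 and 5.98 in pigmented pools, so pigmented replicate 2 was lowest there as well as for the members. With that mean as a covariate the median difference of the members was 1.27, and 28 stood higher at an unadjusted limma p under 0.05. The replicate 1 arrays of both genotypes stood apart from the other 4 on the first principal component (68.9% of the variance). Without them the median difference was 1.36, with 32 members higher at an unadjusted p under 0.05. The share over all probe sets was not taken with the covariate or without these arrays, so neither count has its background beside it. In the main fit over all probe sets, 759 were higher and 345 lower at an unadjusted limma p under 0.05 (68.8% higher). That split turned to 486 and 1057 (31.5%) after centring on the median of the tested probe sets, a setting added after the data were seen. After cyclic loess it was 754 and 701 (51.8%).

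**Figure D5:**
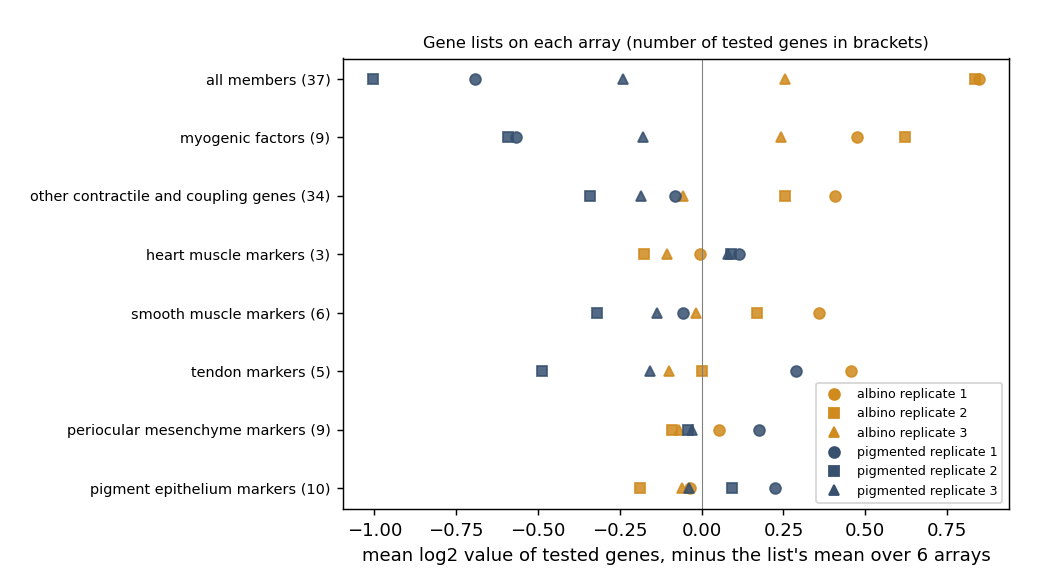
Mean log2 value of the tested genes of each list on each array, minus the list's mean over the 6 arrays (x axis), for the 37 members and 7 other lists (rows). The members and the myogenic factors part the genotypes with the replicate 3 arrays nearest 0. The other contractile genes and the smooth muscle markers also part them, over a shorter range. The heart list parts them with albino lower, and the tendon list overlaps. The periocular, heart and pigment epithelium lists stay within a narrow range.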

How the data were processed

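The authors deposited log2 expression values. Per the submitters' processing notes they come from Affymetrix Expression Console 1.1 and RMA, which subtracts background, equalises array distributions and combines the probes of a set, so differences are relative to other transcripts. The notes do not say if the 6 arrays went through a single run. The platform annotation names 1 gene for 34945 probe sets and several for 932, and all 40 members are in the RefSeq gene table. After leaving out 64 control probe sets and those whose mean was below 5, 23591 of 45101 were fitted as albino minus pigmented with limma (version 3.58.1, R 4.3.3; lmFit, eBayes; two-sided; tested on simulated data). P-values were adjusted over all fitted probe sets (Benjamini-Hochberg), and SEs come from that fit. Array medians were 5.19 to 5.22, and the number of arrays limits the precision.

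The members, role groups and lists were chosen with earlier results of these data known. Values on every array were given for the 10 tested members with the largest difference, the isoform pairs, Myh3, Myh7, Myh8, Chrng, Myl4, Des, Ttn and the 3 tested members with the smallest difference. Of the list of other contractile genes, the 4 widest on each side were named. Ryr1, Cacna1s, Cacng1 and the genes of the marker lists were named after their values were seen. Both genotypes use replicate numbers 1, 2 and 3. Deviations from the genotype means correlated at 0.863, 0.687 and 0.448 between arrays of the same number, so the numbers were taken as pairing the arrays from the data, not from the labels. Albino replicate 2 correlated as closely with pigmented replicate 3 (0.693), and albino replicate 3 more closely with pigmented replicate 2 (0.546). Replicates 2 and 3 are therefore not told apart, which limits the replicate block and the differences by number. Alternatives were other scalings, filter, probe set choice, array weights, the replicate block, a Y-linked covariate and leaving out arrays.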

Additional observations from a re-analysis of the deposited data

How the results depend on the processing

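Across 16 alternative settings, 35 of the 37 tested members kept their sign in each setting they could be fitted in, and no member passed an adjusted limma p under 0.05 in any of them (range of adjusted p 0.0912 to 1). The count of members higher at an unadjusted p under 0.05 stayed between 28 and 33, but not always out of 37. It was 28 of 32 with probe sets averaged, 28 of 37 with the Y-linked covariate and 33 of 40 without the filter. The share over all probe sets was not taken in every setting. The median difference stayed between 1.24 and 1.79. Leaving out single arrays gave medians of 1.24 to 1.79 and counts of 31 to 33, with 33 to 34 members whose groups did not overlap. Class medians then ran from 1.22 to 1.86 (embryonic), 0.76 to 1.18 (mature), 1.36 to 1.81 (slow) and 1.42 to 1.92 (fast). With the replicate block the median was 1.50 and the count 33, and Ckm became lower at an unadjusted limma p of 0.040, the only change of a call among the members. Signs turned for Tpm2, to 0.028 with array weights, 0.16 with probe sets averaged, 0.092 without pigmented replicate 1 and 0.055 without both replicate 1 arrays. The range without single arrays was -0.17 to 0.092 for Tpm2 and -0.028 to 0.077 for Chrnd. Signs also turned for Chrnd, to -0.053 with centring on the tested probe sets (added after the data were seen), -0.0027 with array weights, -0.0017 without albino replicate 2, -0.028 without pigmented replicate 1 and -0.01 without both replicate 1 arrays. With probe sets averaged, Tnnt2 gave 0.98, and with the Y-linked covariate Des gave 0.49 and Chrng 0.29, and the causes were not tested. Dim probe sets limit what can be read of Ryr1, Cacna1s, Cacng1, Tcap, Chrnd and Ckm.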
